A study of Mus musculus with 6 samples.

Results

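The receptors through which cells sense vascular endothelial growth factor (VEGF) were followed in single cells of mouse pancreatic tumours: the receptor tyrosine kinases Kdr (VEGFR2), Flt1 (VEGFR1) and Flt4 (VEGFR3), and the coreceptors Nrp1 and Nrp2. These 5 genes were taken by symbol from the 32285 genes of the count matrices, and each symbol had 1 row in all 6 libraries. On mouse build GRCm38, Kdr (ENSMUSG00000062960) lies at chr5:75932827-75978458 on the minus strand. Flt1 (ENSMUSG00000029648) lies at chr5:147561604-147726011 on the minus strand. Flt4 (ENSMUSG00000020357) lies at chr11:49609263-49652739, Nrp1 (ENSMUSG00000025810) at chr8:128358604-128503363 and Nrp2 (ENSMUSG00000025969) at chr1:62703285-62818695, all 3 on the plus strand. The values are whole-gene counts, so the membrane and soluble forms of Flt1 are not separated.

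Kdr is the main signalling receptor for VEGF-A in blood vessel endothelium and drives growth, migration and permeability. Flt1 binds VEGF-A, VEGF-B and placental growth factor tightly but signals weakly, and it is regarded largely as a trap for ligand. Flt4 is the receptor for VEGF-C and VEGF-D and is best known from lymphatic vessels. The neuropilins carry no kinase of their own: they present VEGF to the receptors, and they also bind class 3 semaphorins together with plexins, Nrp1 mainly in arteries and Nrp2 mainly in veins and lymphatics.

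The tumours arose in KPC mice, whose genotype is given as KrasLSL.G12D/+; P53LSL.R172H/+; Pdx1-Cre in every animal. Cre is driven from the pancreatic Pdx1 promoter, so the mutant alleles are switched on in the epithelial lineage and not in vessels or immune cells. In 1 group of 3, mice received IPI-926, which blocks Smoothened and with it the Hedgehog pathway, daily by oral gavage at 40 mg/kg for 2 days. In the other group of 3, mice received the vehicle, hydroxypropyl-beta-cyclodextrin in water, and tumours were taken 2 hours after the final dose. The study's design names Hedgehog, WNT and VEGF signalling, and the comparison asks whether the receptors differ after this brief block. Each of the 6 samples gave 1 library of droplet-based 10x Genomics single-cell counts, in which a unique molecular identifier (UMI) stands for 1 captured transcript. The labels do not state outright that each sample was a separate animal, so p-values measure the spread between these samples. Replicate numbers only name them and pair none.

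Quality filters and doublet removal left 49797 cells, from 6184 to 14156 per library, with a median of 2763 to 7521 UMIs per cell. Cells were clustered without the 5 genes and named from marker genes, so the level of the receptors did not decide which cells were called endothelial. There were 1728 endothelial cells: 289, 293 and 579 in vehicle replicates 1 to 3, and 162, 82 and 323 in IPI-926 replicates 1 to 3. Their identity markers were present in every library, with Pecam1 at 919 to 1137 and Cdh5 at 846 to 1121 UMIs per 1000000 UMIs of the endothelial sum (CPM). They include 5 subclusters, of 151, 72, 42, 26 and 24 cells, whose leading genes belong to another class: ductal epithelium (Tff2, Muc6) in 2 of them, neutrophils (S100a9), perivascular cells (Rgs5) and fibroblasts (Col1a1). The library of IPI-926 replicate 3 was unlike the others. It held 4089 of the 5741 fibroblasts, most of them in clusters led by Crabp1, and 234 of its 323 endothelial cells formed a subcluster of its own led by Cxcl9 and Ubd. Crabp1 was also read at 33.7 CPM in the endothelial cells of that library and at 0 in those of the other 5. Libraries shared between 14 and 59 cell barcodes by pair.

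The promoters of Kdr and Flt1 are shown because these 2 receptors were found in the same endothelial cells and parted company in other cell types. The sequences are from RefSeq on GRCm38.p6, read on the minus strand 5′ to 3′, from 250 bases before to 50 bases after the annotated start. Capitals mark the ETS core GGAA, the cyclic AMP response element TGACGTCA and the GC box GGGCGG on either strand.
Kdr: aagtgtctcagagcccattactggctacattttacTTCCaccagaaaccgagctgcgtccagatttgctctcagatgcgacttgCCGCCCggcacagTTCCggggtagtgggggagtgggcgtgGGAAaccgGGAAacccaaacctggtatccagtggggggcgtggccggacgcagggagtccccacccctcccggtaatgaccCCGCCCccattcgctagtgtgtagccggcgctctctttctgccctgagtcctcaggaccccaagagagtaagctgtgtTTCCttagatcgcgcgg
Flt1: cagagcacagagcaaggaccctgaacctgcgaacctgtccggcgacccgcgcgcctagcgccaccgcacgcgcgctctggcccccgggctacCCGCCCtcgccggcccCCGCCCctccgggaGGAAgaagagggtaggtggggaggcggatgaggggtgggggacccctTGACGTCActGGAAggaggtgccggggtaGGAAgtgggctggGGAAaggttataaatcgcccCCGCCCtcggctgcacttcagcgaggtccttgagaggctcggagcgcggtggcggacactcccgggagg

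The Kdr stretch is chr5:75978406-75978705 and the Flt1 stretch is chr5:147725962-147726261. Among 27025 promoters of the same length, 95.9% held GGAA, 35.9% held GGGCGG, 24.1% held the extended ETS letters GGAAGT, 14.2% held TATAAA and 1.88% held TGACGTCA, both strands read. Kdr had 5 GGAA, of which 1 was the start of GGAAGT on the opposite strand, and 2 GGGCGG. Flt1 had 4 GGAA, of which 1 overlapped GGAAGT, and 3 GGGCGG. TGACGTCA occurred 81 bases before the Flt1 start and TATAAA (in lower case) 31 bases before it. Neither of these letter strings is in the Kdr window.

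Kdr was highest in endothelial cells, at 575, 617 and 785 CPM in vehicle replicates 1 to 3 and 527, 503 and 613 CPM in IPI-926 replicates 1 to 3. Mesothelial cells, the lining of the abdominal cavity and its organs, came next at 189, 95.6 and 159 CPM with vehicle and 45.8 and 54.9 CPM in IPI-926 replicates 2 and 3. Endothelial cells were above mesothelial cells in 5 of 5 libraries, and mesothelial cells were above dendritic cells, the next class, in 4 of 4. The mean over libraries then dropped from 109 CPM in mesothelial cells to between 0.96 and 6.69 CPM in the other classes compared, whose order was not resolved.

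Flt1 followed another order. Its endothelial level was 941, 714 and 1292 CPM with vehicle and 822.5, 537 and 943 CPM with IPI-926. Perivascular cells (pericytes and smooth muscle cells) were second at 255, 333 and 120.3 CPM with vehicle and 302, 303 and 98.9 CPM with IPI-926, below endothelial cells in 6 of 6 libraries. Ductal epithelium came next with a mean of 39.6 ± 29.4 CPM (SD, n = 6) and below perivascular cells in 6 of 6 libraries. Which cells were tumour cells was not determined. An unnamed cluster of 1252 cells led by Pvt1 and Faim2, 61.7% of them from IPI-926 replicate 1, had Flt1 at 55.1 CPM (4115 UMIs). In mesothelial cells Flt1 was between 0 and 1.7 CPM in the 5 libraries with at least 20 such cells, which gave the lowest mean of the classes compared.

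The first 2 receptors were therefore split outside the endothelium. Mesothelial cells held 2173 Kdr UMIs and 16 Flt1 UMIs, whereas perivascular cells held 906 Flt1 UMIs and 6 Kdr UMIs. The summed level of 17 endothelial markers was 83.0 to 168.6 CPM in mesothelial cells and 453.6 to 648.3 CPM in perivascular cells, against 7877 to 11830 CPM in endothelial cells, and the libraries held UMIs of 9 to 17 and of 7 to 13 of them in the first 2 classes. Among the defining ones, in mesothelial cells Cdh5 was at 0 to 2.15 CPM and Cldn5 at 0 to 0.258 CPM, and in perivascular cells Cdh5 was at 0 to 7.66 CPM and Cldn5 at 0 to 1.38 CPM. The part of the other listed genes in the receptor levels was not tested. The mesothelial markers Upk3b and Lrrn4 stood at 581 to 817 and 349 to 506 CPM in the mesothelial cells.

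**Figure D1:**
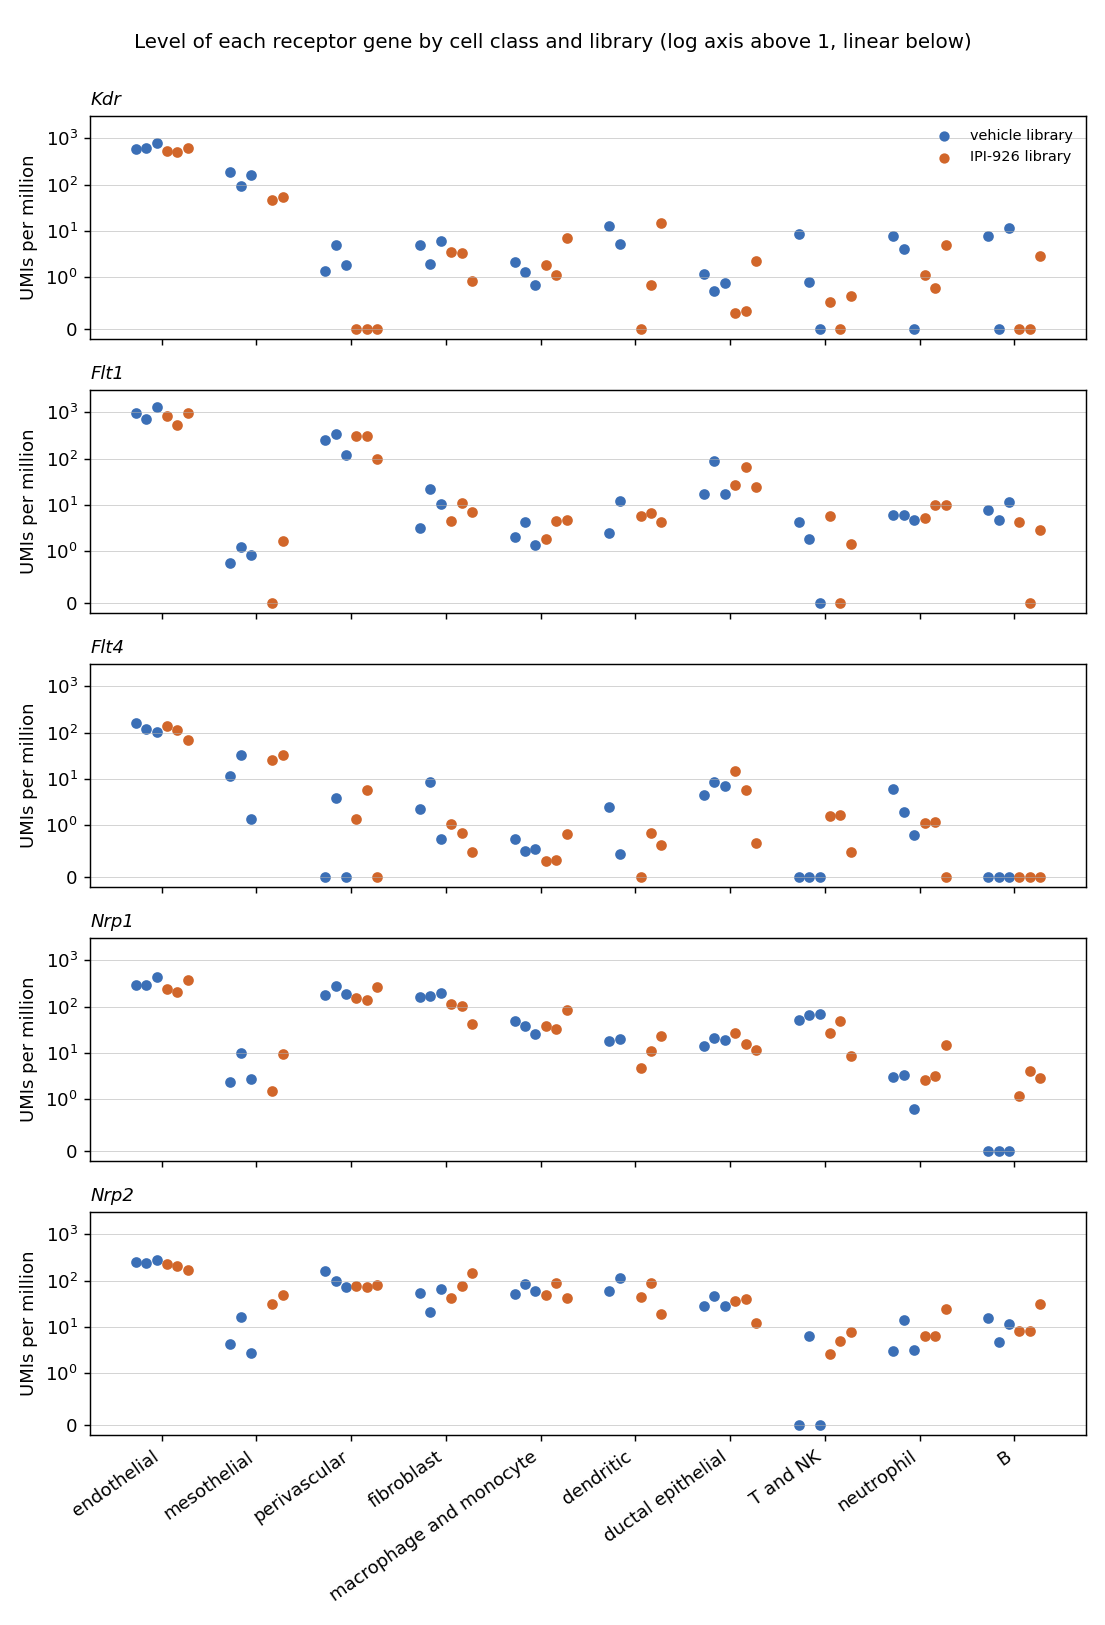
Level of the 5 receptor genes in 10 cell classes, in CPM on an axis that is logarithmic above 1 and linear below; each point is 1 library with at least 20 cells of the class, vehicle in blue and IPI-926 in orange. The endothelial mean is the highest for all 5 genes, with perivascular points of Nrp1 reaching into the endothelial range, mesothelial cells carry Kdr with almost no Flt1, and perivascular cells carry Flt1 with almost no Kdr.

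Flt4, the lymphatic receptor, was at 158, 118 and 105 CPM in endothelial cells with vehicle and at 138, 112 and 68.3 CPM with IPI-926. Mesothelial cells ranged from 1.4 to 32.7 CPM and ductal epithelium from 0.7 to 14.5 CPM, and these 2 neighbours did not differ beyond their spread. In B cells no Flt4 UMI was found in any library.

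Nrp1 was spread more widely. Its endothelial level was 291, 299 and 439.8 CPM with vehicle and 237, 205 and 370.4 CPM with IPI-926. Perivascular cells had a mean of 199 ± 56.9 CPM (SD, n = 6), lower than endothelial cells in 6 of 6 libraries, and fibroblasts a mean of 133 ± 57.6 CPM, lower than perivascular cells in 5 of 6. Among immune cells Nrp1 is known from regulatory T cells. The regulatory T-like cells had 63.7 CPM with the libraries summed (83 UMIs in 352 cells), against 11.8 CPM in conventional CD4 T-like cells and 3.77 CPM in CD8 T-like cells. The CD4 cells came mainly from IPI-926 replicate 1 (95.1% of their larger cluster) and the CD8 cells almost wholly from IPI-926 replicate 3 (99.8%). Within IPI-926 replicate 1 the CD4 cells (421) had 11.4 CPM and the regulatory T-like cells (62) 78.5 CPM, and within IPI-926 replicate 3 the CD8 cells (602) had 3.77 CPM and the regulatory T-like cells (96) 67.0 CPM. All T and NK cells together held 229 Nrp1 UMIs, part of them in cells without a subtype name. With vehicle the whole class had a mean of 62.1 CPM, near the 63.1 CPM of regulatory T-like cells in vehicle replicate 2. Nrp1 was therefore not confined to regulatory T-like cells. An unnamed cluster of 144 cells led by Siglech and Cox6a2, genes typical of plasmacytoid dendritic cells, carried Nrp1 at 69.9 CPM and Kdr at 30.2 CPM. Acinar cells, the source of digestive enzymes, had 110.4 and 122 CPM in the 2 libraries with at least 20 of them.

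Nrp2 was read in most classes. Endothelial cells stood at 256, 242 and 274 CPM with vehicle and 232, 210.0 and 173 CPM with IPI-926. Perivascular cells (mean 93.9 CPM), macrophages and monocytes (63.2 CPM), fibroblasts (67.3 CPM) and dendritic cells (64.9 CPM) followed, and none of these neighbours differed beyond its spread. Within the dendritic cells the migratory-like ones had 279.6 CPM with the libraries summed (287 UMIs in 139 cells), with values from 75.9 to 415 CPM by library. Type 1 dendritic-like cells had 3.56 CPM.

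Over the 45 neighbouring pairs in the class orders of the 5 genes, the mean within-library difference exceeded its SD in 15. No exact sign-flip permutation test of a pair passed after Benjamini-Hochberg adjustment (smallest adjusted p = 0.216, two-sided), and with 6 libraries the smallest raw p the test can give is 0.0312. When every cell was thinned to 1000 UMIs, so that deep and shallow cells could be compared, Kdr was seen in 41.2% ± 6.57 (SD over 6 libraries) of endothelial cells and in 10.7% ± 4.64 of mesothelial cells (n = 5). It was seen in 0.274% of T and NK cells, 0.123% of ductal cells and no B cell, at median depths of 2675, 18302 and 2987 UMIs against 5306.5 in endothelial cells. T and NK, ductal and B cells were taken as background, and the source of their few reads was not tested. Flt1 was seen in 52.0% ± 9.63 of endothelial and 18.7% ± 7.35 of perivascular cells (n = 5), against 0.277% of T and NK cells. The endothelial shares were 8.45% for Flt4, 26.3% for Nrp1 and 19.9% for Nrp2. Thinning left out 132 endothelial cells with fewer UMIs, and the unthinned shares were 79.1%, 81.7%, 37.1%, 65.8% and 59.5% for Kdr, Flt1, Flt4, Nrp1 and Nrp2.

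Endothelial cells were clustered again, also without the 5 genes, into arterial-like (325 cells), venous-like (373), tip-like (169), lymphatic-like (84) and unnamed groups. With vehicle, Kdr, Flt1 and Nrp1 were higher in arterial-like than in tip-like and venous-like cells in all 3 libraries. Arterial-like cells then had Kdr at 1108, 1244 and 1083 CPM, Flt1 at 1829, 1535 and 1858 CPM and Nrp1 at 508, 471.5 and 536 CPM. With IPI-926 the order did not hold in every library: over both groups arterial-like cells were above tip-like cells in 4 of 6 libraries for Kdr, 5 of 6 for Flt1 and 4 of 6 for Nrp1, and in IPI-926 replicate 3 their Flt1 was 638 CPM against 1175 CPM. IPI-926 replicates 1 to 3 held only 6, 9 and 16 arterial-like cells and 18, 11 and 6 tip-like cells. An unnamed group of 136 cells led by Kcnj2, Robo1, Igfbp3 and Btnl9 had Flt1 at 1902, 1816 and 1692 CPM with vehicle, and it was above tip-like and venous-like cells for Kdr, Flt1 and Nrp1 in 4 of 4 libraries. Between arterial-like and venous-like cells Nrp2 ran the other way, at 137, 211 and 92.1 CPM in arterial-like cells against 464.5, 336 and 465 CPM in venous-like cells, where it was the higher of the pair in 5 of 5 libraries with at least 5 cells of each. The Kcnj2-led cells were high in Nrp2 too, at 379, 357 and 399.9 CPM with vehicle, above arterial-like and tip-like cells in 4 of 4 libraries.

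Lymphatic-like cells, led by Ccl21a, Mmrn1 and Prox1, had a receptor set of their own. Flt4 stood at 560, 763 and 633 CPM with vehicle and 815, 464 and 502 CPM with IPI-926, above the arterial-like, venous-like and tip-like levels in every library with at least 5 cells of each (6, 5 and 6 libraries). Kdr was at 433 CPM and Nrp2 at 334 CPM with the libraries summed, while Flt1 was at 16.0 CPM (19 UMIs). No Nrp1 UMI was found in 84 lymphatic-like cells of 6 libraries, 0 of 1186805 UMIs, which allows up to 2.53 CPM. These libraries held only 9 to 26 lymphatic-like cells each, and intervals and limits of this kind cover counting error alone. Tip-like cells, the migrating front of sprouts, had Kdr at 453, 573.5 and 495 CPM and Flt1 at 709, 422 and 514 CPM with vehicle.

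**Figure D2:**
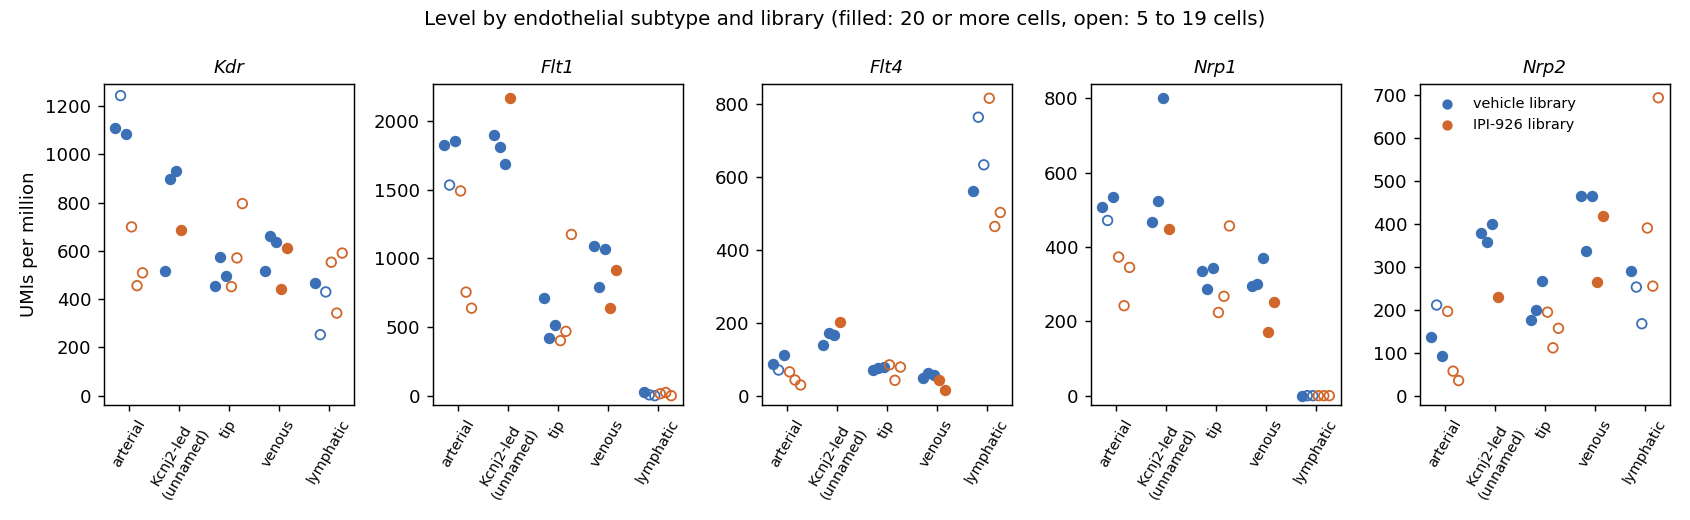
Level of each gene in 5 endothelial groups, in CPM, 1 point per library (blue vehicle, orange IPI-926; filled with 20 or more cells, open with 5 to 19). Flt4 is high in lymphatic-like cells, where Nrp1 is at 0 and Flt1 near 0, and Kdr, Flt1 and Nrp1 are high in arterial-like cells of the vehicle libraries.

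Kdr and Flt1 were also counted cell by cell, without thinning. Of 1383 endothelial cells with a Kdr UMI, 1233 (89.2%) also had a Flt1 UMI, with 97.2% in arterial-like, 96.3% in venous-like and 93.0% in tip-like cells. Flt1 was read in most endothelial cells in any case, with a mean share of 81.7% over libraries. Of 325 arterial-like cells 278 had both, 8 had Kdr alone and 34 had Flt1 alone. Whether the 2 receptors go together beyond their general detection was not tested. In lymphatic-like cells 8 of 71 Kdr cells (11.3%) had Flt1, and no cell had Flt1 alone. In mesothelial cells 530 cells had Kdr alone, 11 had both and 3 had Flt1 alone. In perivascular cells 183 had Flt1 alone, 4 had both and 1 had Kdr alone.

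**Figure D3:**
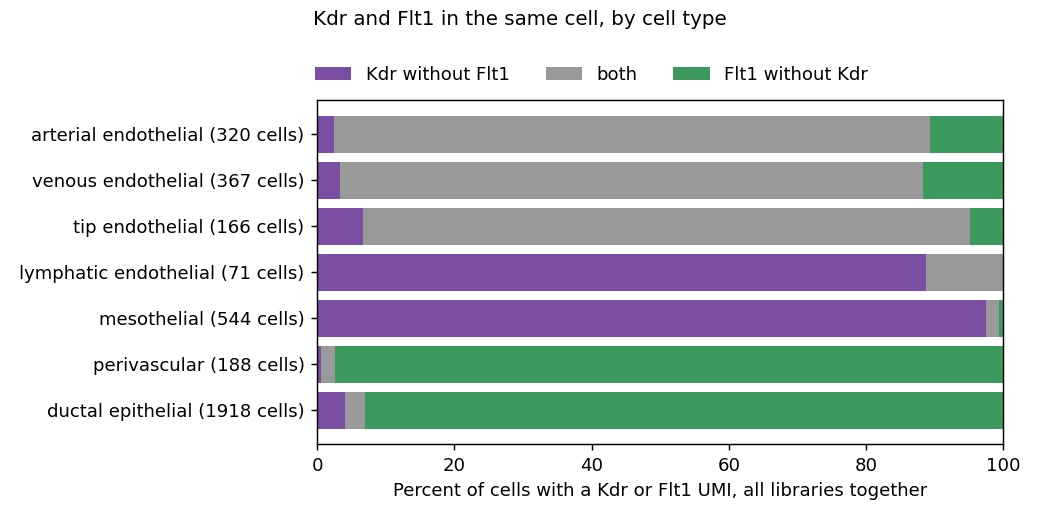
Cells with a Kdr or a Flt1 UMI, split into Kdr alone (purple), both (grey) and Flt1 alone (green), as percent of the number of cells given beside each type with all libraries together. Blood endothelial groups are mostly grey, lymphatic-like and mesothelial cells mostly purple, and perivascular and ductal cells mostly green.

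In endothelial cells no receptor passed the test of IPI-926 against vehicle. Raw counts were summed per library and compared with edgeR's quasi-likelihood test. After Benjamini-Hochberg adjustment across the 10330 genes tested, 0% passed at 0.05. At an unadjusted p under 0.05 there were 387 genes, DESeq2 called 20 genes (0.194%) and limma-voom called 0, and no receptor was among the calls of any of these tools. Kdr had a mean of 659 ± 111 CPM with vehicle and 548 ± 57.5 CPM with IPI-926 (SD, n = 3 each), a log2 change of -0.20 (SE 0.16, edgeR adjusted p = 0.973), and its groups overlapped. Flt1 had 982 ± 291 and 767.5 ± 208 CPM, a log2 change of -0.28 (SE 0.25, edgeR adjusted p = 0.973). Flt4 had 127 ± 27.8 and 106 ± 35.4 CPM, a log2 change of -0.19 (SE 0.30, edgeR adjusted p = 0.984). Nrp1 had 343.5 ± 83.5 and 271 ± 87.65 CPM, a log2 change of -0.27 (SE 0.24, edgeR adjusted p = 0.973). Nrp2 had 257 ± 15.95 and 205 ± 29.8 CPM, a log2 change of -0.26 (SE 0.17, edgeR adjusted p = 0.973). Every IPI-926 library was below every vehicle library for Nrp2 alone among the 5, as for 5.43% of all genes tested, while 4.66% lay wholly above and no receptor did. The fitted change was below 0 for all 5 receptors and for 51.0% of all genes. Without the subclusters that 1 library supplied, the change was 0.03 for Nrp2 and 0.27 for Flt4, and for Flt4 it was 0.06 without IPI-926 replicate 3 and 0.01 without vehicle replicate 1. Over all 17 alternatives the change ran from -0.53 to 0.27 for Flt4 and from -0.37 to 0.03 for Nrp2.

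**Figure D4:**
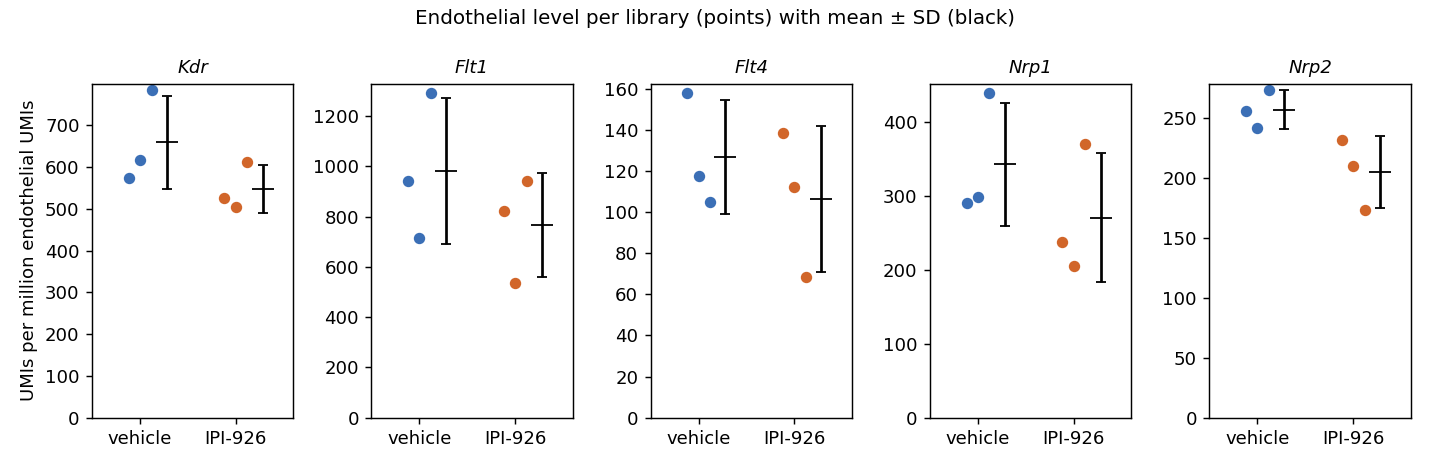
Level of the 5 genes in endothelial cells, in CPM of the endothelial sum, 1 point per library with the mean and SD of each group in black. The groups overlap for Kdr, Flt1, Flt4 and Nrp1, and the 3 IPI-926 points of Nrp2 lie below the 3 vehicle points.

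The libraries differed in their mix of endothelial cells. Arterial-like cells numbered 64, 9 and 221 with vehicle and 6, 9 and 16 with IPI-926, and venous-like cells 75, 35 and 200 against 37, 23 and 3. In IPI-926 replicate 3 these counts leave out the 234 of its 323 endothelial cells in its own Cxcl9-led subcluster. That subcluster was given no subtype name, and clustering used no batch integration. Whether it held arterial-like or venous-like cells was not tested. In the few arterial-like cells of IPI-926 replicates 1 to 3, Kdr was at 699.6, 456 and 509 CPM, below the 1083 to 1244 CPM of the vehicle libraries. No test was made because no IPI-926 library had 20 arterial-like cells. Venous-like cells could be tested with 3 vehicle and 2 IPI-926 libraries, where 0.051% of 5884 genes passed edgeR's adjusted threshold and no receptor did. Venous-like Nrp1 stood at 294, 299.9 and 371 CPM with vehicle and at 172 and 252 CPM with IPI-926. Its log2 change was -0.57 (SE 0.25, edgeR adjusted p = 0.953). Transcripts of other cells also moved with the groups. The summed level of 17 ductal epithelial markers in endothelial cells was 619 to 1700 CPM with vehicle and 199 to 449.5 CPM with IPI-926, and each library held UMIs of 15 to 17 of them. The summed endothelial markers, 17 of 17 detected, were at 7877 to 11830 and 8443 to 9761 CPM. The part of these differences in the receptor values was not tested.

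The rest of the pathway in endothelial cells was read from fixed gene lists, and no list had a member that passed edgeR's test. Of the VEGF ligands 4 of 5 were tested, with a median log2 change of -0.63 against -0.01 for all genes. Vegfa, the main ligand of Kdr, was at 14.2 ± 2.83 scaled CPM with vehicle and 8.36 ± 2.80 with IPI-926, a log2 change of -0.76 (SE 0.33, edgeR adjusted p = 0.973). The log2 change was -0.87 for Vegfc (SE 0.72), -0.50 for Pgf (SE 0.46) and 0.04 for Vegfb (SE 0.32). Among class 3 semaphorins 4 of 7 were tested, 2 above and 2 below 0, and the smallest p was that of Sema3g, at -0.94 (SE 0.67), before Sema3a at 0.44 and Sema3d at 0.30. Among plexins 4 of 5 were tested, 1 above and 3 below 0, with Plxna2 at 0.18, Plxna4 at -0.33 and Plxna1 at -0.20.

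Of 19 tested partners and brakes of the receptors 13 were below 0, with a median of -0.18. Ptprb, the phosphatase that dampens Kdr and Tek, stood at 835 ± 282 scaled CPM with vehicle and 563 ± 98.7 with IPI-926 (log2 change -0.57, SE 0.27). Itgav, an integrin subunit, had a change of -0.40 and Spry1, an inhibitor of receptor kinase signalling, of -0.48. Of 25 signal relays 16 were below 0, with a median of -0.07. Pik3r1, the regulatory subunit of PI3 kinase, was at 129 ± 16.6 and 90.7 ± 13.6 scaled CPM (log2 change -0.50, SE 0.18, edgeR adjusted p = 0.973). Ppp3ca, a subunit of calcineurin, was at 235 ± 9.07 and 181 ± 9.19 (log2 change -0.38, SE 0.14). Every IPI-926 library was below every vehicle library for both, as for 5.43% of all genes tested. Prkd2 was at 0.35. Of 25 VEGF response genes 18 were below 0, with a median of -0.17, and the smallest p belonged to Nr4a2 (-0.72), Klf4 (-0.43) and Ets1 (-0.30). Of 12 stalk and Notch genes 10 were below 0, with a median of -0.20, led by Jag1 (-0.55), Tek (-0.40) and Hey1 (-0.51).

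Of 19 endothelial transcription factors 17 were below 0, with a median of -0.16. Sox7 had a log2 change of -0.55 and Ets2 of -0.46. Meox2, a homeobox factor of vascular cells, was 1 of the 2 above 0, at 7.76 ± 2.22 scaled CPM with vehicle and 30.9 ± 5.77 with IPI-926 (log2 change 2.01, SE 0.28, edgeR adjusted p = 0.325). It was also the gene of smallest p among all genes with a positive change, followed by Cfb (1.43), Tyms (0.83), Pla1a (2.13) and Csf1 (1.31). The 5 genes of smallest p with a negative change were Cystm1 (-2.45), Ctse (-3.19), Tff1 (-5.11), Gkn2 (-5.41) and Onecut2 (-2.16), with edgeR adjusted p from 0.325 to 0.336. Tff1 and Gkn2 are gastric epithelial genes and are among the ductal markers given above.

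In the other classes no receptor passed edgeR's test either, over 26 pairs of gene and class that had enough counts. The share of genes that passed was 0.0563% in mesothelial cells, 0.0138% in T and NK cells and 0.0345% in B cells, and 0% in dendritic cells, ductal epithelium, fibroblasts, macrophages and monocytes, neutrophils and perivascular cells. Perivascular Flt1 was at 236 ± 108 CPM with vehicle and 235 ± 117.5 with IPI-926, a log2 change of 0.03 (SE 0.49, edgeR adjusted p = 0.9999). Perivascular Nrp2 was at 164, 98.2 and 72.2 CPM with vehicle and 78.2, 71.8 and 79.1 CPM with IPI-926, a log2 change of -0.57 (SE 0.31, edgeR adjusted p = 0.9999).

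In mesothelial cells, where the IPI-926 group had 2 libraries, the fitted changes of Kdr, Nrp2 and Flt4 were all larger than 1 on the log2 scale. Kdr was at 189, 95.6 and 159 CPM with vehicle (394, 32 and 143 cells) and at 45.8 and 54.9 CPM with IPI-926 (39 and 180 cells). Its log2 change was -1.48 (SE 0.32, edgeR adjusted p = 0.191). Nrp2 was at 4.4, 16.4 and 2.8 CPM with vehicle and 30.6 and 49.9 CPM with IPI-926, a log2 change of 2.88 (SE 0.61, edgeR adjusted p = 0.2003). Flt4 was at 11.3, 32.7 and 1.4 CPM with vehicle and 25.97 and 32.2 CPM with IPI-926, with overlap, a log2 change of 1.32 (SE 0.88, edgeR adjusted p = 0.633) that was 2.05 without vehicle replicate 2 and 0.73 without vehicle replicate 3. Kdr and Nrp2 passed with DESeq2 (adjusted p = 0.00863 for Kdr and 0.0145 for Nrp2), which called 1.54% of the genes, and passed in edgeR without vehicle replicate 2 (adjusted p = 0.0474 and 0.0312). In that edgeR fit 46 of 11218 genes passed, against 6 of 10662 in the main fit. IPI-926 replicate 1 had 15 mesothelial cells and Kdr at 132 CPM, above the 95.6 CPM of vehicle replicate 2. With IPI-926 replicate 1 included, the Kdr change was -0.95 (SE 0.43, edgeR adjusted p = 0.5435) and the Nrp2 change 2.52 (SE 0.77, edgeR adjusted p = 0.394). Without vehicle replicate 1 or 3 the adjusted p of Kdr was 0.651 and 0.308 in edgeR. The difference of the Kdr response between endothelial and mesothelial cells within a library was 1.22 on the log2 scale (SE 0.46, limma adjusted p = 0.575), that of Nrp2 was -3.05 (SE 0.82, limma adjusted p = 0.481) and that of Flt4 was -2.21 (SE 1.04, limma adjusted p = 0.648), and 0% of 9579 genes passed that test. Of 17 ductal markers, some of them keratins that mesothelium also makes, the sum in these cells was 2254 to 3222 CPM with vehicle and 4315 to 4721 CPM with IPI-926. That of 17 fibroblast markers was 11810 to 19240 and 9843 to 12240 CPM. Their part in the result was not tested.

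In fibroblasts Nrp1 was at 164, 172 and 201 CPM with vehicle and 114, 103.5 and 41.8 CPM with IPI-926. Its log2 change was -1.002 (SE 0.38, edgeR adjusted p = 0.9145). Nrp2 was at 53.5, 20.6 and 65.7 CPM with vehicle and 42.5, 77.2 and 144.5 CPM with IPI-926, a log2 change of 1.001 (SE 0.57, edgeR adjusted p = 0.9145). The lowest Nrp1 and the highest Nrp2 belonged to IPI-926 replicate 3, whose Crabp1-led clusters had 33.6 and 40.5 CPM of Nrp1 and 116 and 149 CPM of Nrp2. The 2 other large fibroblast clusters, led by Serpine2 and by Svep1, both had 162 CPM of Nrp1 and 52.6 and 12.46 CPM of Nrp2. Without clusters that 1 library supplied, the changes were -0.13 for Nrp1 and 0.04 for Nrp2. The summed level of 17 macrophage and monocyte markers in fibroblasts was 7031 to 37540 CPM with vehicle and 2664 to 3086 CPM with IPI-926. Each library held UMIs of 15 to 17 of these markers. Their part in the neuropilin values was not tested.

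Macrophages and monocytes had Nrp1 at 48.3, 37.9 and 25.6 CPM with vehicle and 38.6, 32.2 and 84.2 CPM with IPI-926 (log2 change 0.52, SE 0.40, edgeR adjusted p = 0.9999). The high library was again IPI-926 replicate 3, which supplied 99.3% of a cluster led by Ccl8 and Ms4a7 with 143 CPM. Without such clusters the change was -0.12. Macrophage Nrp2 was highest, at 120.0 CPM, in a cluster led by Mmp12 and Gpnmb. In T and NK cells Nrp1 was at 50.5, 67.0 and 68.7 CPM with vehicle and 27.2, 48.1 and 8.7 CPM with IPI-926 (log2 change -1.105, SE 0.56, edgeR adjusted p = 0.9998). The mix of this class differed between libraries. Regulatory T-like cells were 7 of 89, 145 of 335 and 14 of 55 with vehicle. With IPI-926 they were 62 of 625, 28 of 149 and 96 of 1702. The part of this mix in the class values was not tested. Regulatory T-like cells had 63.1 CPM in vehicle replicate 2 and 78.5, 42.0 and 67.0 CPM in IPI-926 replicates 1 to 3, the 4 libraries with at least 20 of them. With 1 such vehicle library no order of the groups can be read. Vehicle replicate 3 had 110.6 CPM from 3 UMIs in 14 cells and vehicle replicate 1 had 1 UMI in 7 cells.

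Flt1 in ductal epithelium varied by library rather than by group, at 17.1, 86.9 and 17.4 CPM with vehicle and 27.0, 65.4 and 24.01 CPM with IPI-926 (log2 change -0.07, SE 0.73, edgeR adjusted p = 0.9998). It also varied between ductal clusters. The cluster led by Csf2 and Lama3 had 55.3 CPM and that led by Gkn2 and Prap1 had 56.8 CPM, against 10.4 CPM in the mucous cluster led by Muc6 and Gkn3 and 7.95 CPM in that led by Gc and Lcn2. Thinned to equal depth, 4.34% ± 2.96 of ductal cells (SD, n = 6) had a Flt1 UMI, above the 0.74% ± 0.997 of B cells.

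Endothelial cells made up a lower share of every IPI-926 library than of any vehicle library. They were 4.38%, 3.42% and 8.37% of kept cells with vehicle and 2.20%, 1.33% and 2.28% with IPI-926. The means were 5.39% ± 2.63 and 1.94% ± 0.529 (SD, n = 3 each; exact permutation test, two-sided p = 0.1, the smallest that 3 against 3 can give). With doublets kept, the shares were 3.32% to 8.80% against 1.24% to 2.44%. Without subclusters led by another class they were 2.37% to 7.36% against 1.02% to 2.06% (exact permutation p = 0.1 in both). When endothelial cells were instead selected by a gate on their UMIs, the shares were 0.743%, 0.909% and 3.53% against 1.21%, 0.388% and 0.396%, which overlap (exact permutation p = 0.3). The gate left out any cell with a UMI of Ptprc, Krt18, Krt19, Col1a1 or Col3a1. Of the endothelial class it kept 48, 73 and 242 cells with vehicle and 68, 24 and 54 with IPI-926. The share is relative to all cells captured, and IPI-926 replicate 3 had far more fibroblasts and macrophages than the others.

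With all kept cells of a library summed, Kdr was at 36.2, 27.3 and 23.4 CPM with vehicle and 14.4, 11.3 and 14.02 CPM with IPI-926. Its log2 change was -1.07 (SE 0.25, edgeR adjusted p = 0.999), where 0% of 17881 genes passed. DESeq2 gave it an adjusted p of 0.0388 and called 0.677% of the genes. In such a sum fewer cells of a type and less RNA per cell cannot be told apart. The log2 changes of the other members were -0.31 (Flt1, SE 0.39), -0.47 (Flt4, SE 0.45), -0.29 (Nrp1, SE 0.39) and 0.70 (Nrp2, SE 0.35), all with an edgeR adjusted p of 0.999.

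**Figure D5:**
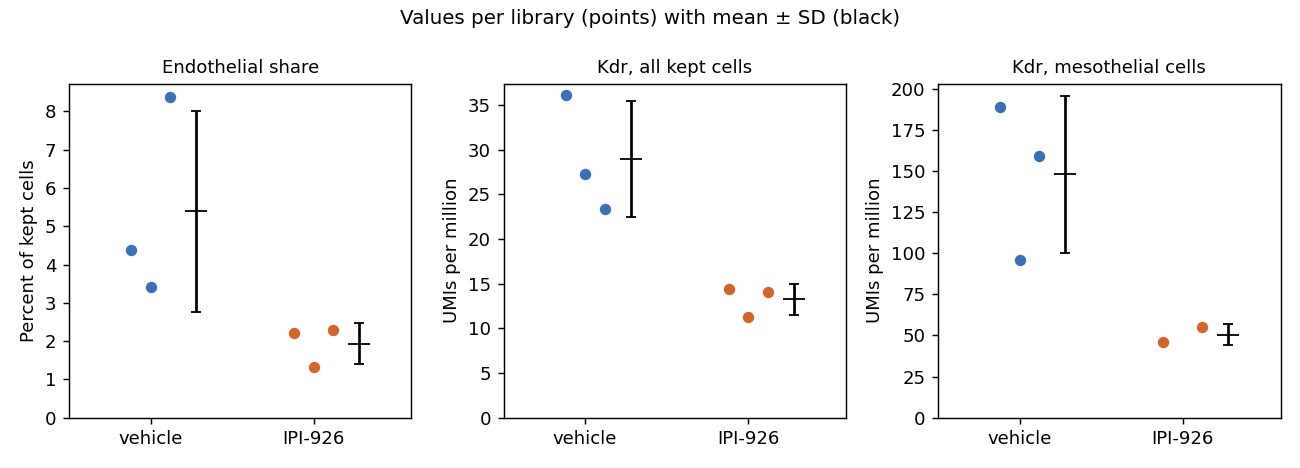
Endothelial share of kept cells in percent, Kdr in all kept cells and Kdr in mesothelial cells in CPM, 1 point per library (blue vehicle, orange IPI-926) with the mean and SD of each group in black. IPI-926 points lie below vehicle points in all 3 panels, with 2 IPI-926 libraries in the mesothelial panel. That panel leaves out IPI-926 replicate 1 (15 cells), whose Kdr level lies above that of vehicle replicate 2.

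The transcripts of each receptor came from different cells. Endothelial cells held a mean of 72.5% of all Kdr UMIs (36.8% to 89.8% by library), 48.8% of Flt1, 36.5% of Flt4, 17.7% of Nrp1 and 10.8% of Nrp2. In vehicle replicate 1, where endothelial cells held the 36.8%, mesothelial cells held 45.9%. Ductal epithelium held 23.5% of Flt1 UMIs on average, and 54.5% in IPI-926 replicate 2. Fibroblasts held 27.7% of Nrp1 UMIs on average, and 86.6% of Nrp2 UMIs in IPI-926 replicate 3. The 5691 cells of unnamed clusters held on average 7.55% of Kdr, 17.3% of Flt1, 22.3% of Flt4, 12.55% of Nrp1 and 23.8% of Nrp2 UMIs. In IPI-926 replicate 1 these cells held 46.0% of Flt1, 53.4% of Flt4 and 65.0% of Nrp2 UMIs, so part of the source is not known. The endothelial part of Nrp1 was 21.1% ± 2.67 with vehicle and 14.2% ± 2.36 with IPI-926, and that of Nrp2 was 15.3% ± 1.05 and 6.33% ± 3.50, both without overlap (exact permutation p = 0.1 each, the smallest possible). Neither separation held when the UMIs of unnamed clusters were left out of the total: IPI-926 replicate 1 then had 22.4% for Nrp1, above the 19.1% of vehicle replicate 2, and 27.4% for Nrp2, above the 17.65% to 21.9% of the vehicle libraries (exact permutation p = 0.2 and 0.4). For Kdr, Flt1 and Flt4 the exact permutation p was 0.8, 0.7 and 0.6.

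Within endothelial cells the balance of Flt1 to Kdr did not separate the groups. The ratio of their UMIs was 1.64, 1.16 and 1.65 with vehicle and 1.56, 1.07 and 1.54 with IPI-926, and the mean log2 ratio differed by -0.09 (exact permutation p = 0.5, two-sided). Without subclusters that 1 library supplied, the ratio of IPI-926 replicate 3 was 1.02.

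Over 65 sums of a class in a library, from 13 classes, each receptor was set beside the genes whose level ran most like it. For Kdr they were Pcdh17 (Pearson r = 0.795), Grrp1, Clec14a, Cd34 and Shank3, and for Flt1 they were Emcn (r = 0.851), Gja4, Tmem252, Dysf and Mcam. Those of Flt4 were AU021092 (r = 0.875), Grrp1, Pcdh17, Bmp4 and Podxl. Nrp1 ran with Plxnd1 (r = 0.81), a plexin of the semaphorin receptors, and with Frmd4a, Itga1 and Gask1b. Nrp2 ran with Nus1 (r = 0.771), Eogt, Rai14, Smad1 and Tmem259. Among the members themselves Kdr and Flt4 were closest (r = 0.704) and Kdr and Nrp1 least alike (r = 0.228). These are descriptions over sums that share libraries, among 6410 genes of at least 50 CPM in some class.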

How the data were processed

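Single-cell libraries of 6 KPC tumours were analysed from the matrices the authors deposited, as raw, unnormalized UMI counts of each gene in each cell. The version is cellranger 6.1.2 per the file headers but Cell Ranger 2.1.1 per the submitters' processing notes, which also give mm10. The annotation is not given in the sources used here; GENCODE vM21 (GRCm38), which gave positions, holds 32158 of the identifiers and lacks 127.

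The libraries held 62905 barcodes and 718531446 UMIs, and no pair agreed within sampling noise (smallest chi-square per degree of freedom 314.4). A cell was kept if it had 500 UMIs and 300 genes or more and no more than 20% mitochondrial UMIs. In each library the cells with the highest doublet score, 0.8% per 1000 barcodes, were removed. Leiden clustering at resolution 1 used 30 principal components of 2000 variable genes, without batch integration, the 5 members or sex-linked genes. A cluster was named from at least 3 detected markers of a fixed list. Rebuilt names may differ from the study's. Sums of at least 20 cells per library entered the tests: edgeR 4.0.16 (TMM, filterByExpr, robust quasi-likelihood), limma 3.58.1 and DESeq2 1.42.0. CPM are UMIs per 1000000 UMIs of a class sum; scaled CPM include TMM scaling. A log2 change is IPI-926 minus vehicle. The edgeR step was tested on simulated data.

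Alternatives covered scaling, filters, the test, doublets, cell filters, cell number, a gate, subclusters and each library left out. Named besides the members were the 5 genes most like each, the tested VEGF ligands, 3 genes of smallest p in each other list, and, by smallest p, 5 genes with a positive and 5 with a negative change. One gene that this rule names is not reported here. The members and lists were chosen with earlier results of these data known. Replicates were numbered in accession order; the sample titles carry different codes and give no pairing.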

Additional observations from a re-analysis of the deposited data

How the results depend on the processing

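No member passed in endothelial cells, in venous-like cells or in a difference of response under any alternative run. In the other classes 0 of 26 pairs of member and class passed with edgeR, against 2 with DESeq2 and 1 without the filter on low counts. With 1 library left out 0 to 2 passed (2 without vehicle replicate 2). All were Kdr or Nrp2 in mesothelial cells. Of all genes tested there, 6 of 10662 passed in the main edgeR fit and 164 of 10662 with DESeq2. Without the filter 173 of 18713 passed, and without vehicle replicate 2 it was 46 of 11218. In whole libraries 0 members passed, and 1, Kdr, with DESeq2, which called 0.677% of the genes. Over 29 pairs of member and class, chosen after seeing their levels, 325 alternatives kept direction and side of the threshold in 296, reversed the direction in 23 and passed in 6.

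With doublets kept, perivascular Flt1 was -0.1702. By the gate, endothelial Flt4 was 0.106. Without subclusters of 1 library, a choice made after seeing the data, endothelial Flt4 was 0.2671 and Nrp2 0.02596; without clusters of 1 library, macrophage Nrp1 was -0.1247 and Nrp2 -0.1885. Macrophage Nrp2, near 0, was -0.007589 with RLE scaling, -0.001714 without the filter, -0.007592 with DESeq2 and -0.008675 with doublets kept. With 1 library left out the log2 change ran from -0.6858 to 1.117 for ductal Flt1, -0.2755 to 0.3798 for perivascular Flt1, -0.4457 to 0.0645 for endothelial Flt4, -0.01643 to 0.7501 for macrophage Nrp1, -0.4925 to 0.2122 for macrophage Nrp2 and -0.5864 to 0.096 for ductal Nrp2.

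The difference of the log2 ratio of Flt1 to Kdr was 0.06412 by the gate and -0.2615 to 0.0859 with 1 library left out. The difference in the endothelial share of UMIs, in percentage points, was then -4.288 to 22.17 for Kdr, -24.1 to 0.69 for Flt1 and -7.862 to 1.212 for Flt4, and for Flt4 it was 8.49 over named classes only. The share of endothelial cells with a UMI was 63.07%, 70.53%, 14.62%, 42.13% and 34.09% for Kdr, Flt1, Flt4, Nrp1 and Nrp2 at 2000 UMIs, and 79.11%, 81.67%, 37.07%, 65.79% and 59.54% unthinned. The cause of these shifts was not tested.

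No paired analysis was possible because the labels give no replicate numbers that the groups share. Few endothelial cells in IPI-926 replicate 2, and subtypes with under 20 cells in most libraries, limit the precision.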
